A study of Oryza sativa with 6 samples.

Results

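The 4 genes described here form the short route by which the hormone gibberellin reaches its transcription factor in rice (Oryza sativa) anthers. They are GID1 (OS05G0407500), GID2 (OS02G0580300), SLR1 (OS03G0707600) and GAMYB (OS01G0812000), taken by identifier, and they are 4 of the 94013 rows of the expression table. Their levels were compared between anthers of wild-type rice and of the mutant dmd1. RNA was sequenced in 6 libraries, 3 per genotype, from plants 3 months old with anthers between the tetrad and the early microspore stage. The design text calls the libraries biological replicates. The sources used here do not give the lesion in dmd1, the cultivar or the number of plants per library. Gene symbols were written beside the identifiers from general knowledge and were not checked against an annotation.

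Gibberellin is sensed by GID1, a soluble receptor in the nucleus and cytoplasm. The hormone-bound receptor grips SLR1, the rice DELLA protein, which otherwise holds gibberellin responses back. GID2, an F-box protein, then marks SLR1 for breakdown. GAMYB, a MYB factor, acts downstream of SLR1 and switches on its own targets. In the anther these targets lie largely in the tapetum, the inner wall layer that feeds the microspores and makes the precursors of their outer wall, and loss of GAMYB leaves rice male sterile. The breakdown of SLR1 acts on the protein, which these RNA data do not measure.

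For each of the 4 genes RNA levels overlapped between the 2 genotypes, and none was called changed. This does not show equal levels, since the interval of the SLR1 fold ran from 0.624 to 1.83. Of the 6 pairs of these genes, 1 had ratios that did not overlap between genotypes, beside 38.4% of single rows tested. In that pair GAMYB stood lower relative to SLR1 in each dmd1 library than in any wild-type library. The difference did not pass (exact permutation p = 0.1, or 0.6 adjusted over the 6 pairs). With 3 libraries per genotype the test of this ratio could not reach a p under 0.05. Levels were in FPKM (fragment counts scaled by transcript length and library size), and differences are log2 changes of FPKM + 1, dmd1 minus wild type, fitted with limma across 25474 rows that reached 1 FPKM in at least 3 libraries. All 4 genes passed this filter. A gene counted as changed, or called, when its adjusted p was under 0.05 and its level had moved by 1 log2 unit or more either way. Of all tested rows 6.71% were called, 3.16% higher and 3.54% lower in dmd1, so a count of 0 among 4 genes is close to the background. At an unadjusted p under 0.05 the count among the 4 genes was also 0 (limma), against 31.3% of tested rows.

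GID1, the receptor, was the least abundant of the 4. It stood at 36.2, 31.0 and 33.0 FPKM in wild-type libraries 1, 2 and 3, against 34.7, 27.8 and 29.5 FPKM in the dmd1 libraries of these numbers. The genotypes overlapped, with dmd1 library 1 above 2 of the wild-type libraries. The means were 33.4 ± 2.62 and 30.7 ± 3.61 FPKM (SD, n = 3), and the log2 change was -0.12 ± 0.13 (SE, 95% interval -0.44 to 0.20, limma adjusted p = 0.578).

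GID2, the F-box protein that gives the ubiquitin ligase its hold on SLR1, was the closest to equal. Its values were 81.2, 90.0 and 77.7 FPKM in wild type and 76.3, 78.5 and 92.5 FPKM in dmd1. Both genotypes covered nearly the same range. The means were 83.0 ± 6.33 and 82.5 ± 8.77 FPKM (SD, n = 3), with a log2 change of -0.012 ± 0.13 (SE, 95% interval -0.34 to 0.31, limma adjusted p = 0.963). The sign of this change turned in 6 of 17 other settings of the fit. Among them were libraries scaled to equal totals, quantile normalization and the fit without wild-type library 2. The GID1 sign turned with equal totals.

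SLR1, the repressor, was the most abundant of the 4 on average and the most variable within a genotype. Wild-type libraries 1, 2 and 3 held 142, 70.5 and 132 FPKM, and dmd1 libraries 1, 2 and 3 held 89.9, 117 and 153 FPKM. The lowest value of each genotype was in wild-type library 2 and dmd1 library 1, and the ranges overlapped along most of their length. The means were 115 ± 38.8 and 120 ± 31.8 FPKM (SD, n = 3), and the log2 change was 0.095 ± 0.32 (SE, 95% interval -0.68 to 0.87, limma adjusted p = 0.87). Its sign turned in 5 of 17 other settings, among them median-of-ratios scaling and the fits without wild-type library 2 or without dmd1 library 3. Its spread within genotypes, a standard deviation of 0.47 on the log2 scale, was larger than that of 83.0% of tested rows, while GID1 and GID2 had spreads of 0.14 and 0.13, larger than those of 19.6% and 17.1%.

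GAMYB, the transcription factor at the end of the route, had the largest difference of the 4, still within the spread of the libraries. Wild-type libraries gave 94.7, 61.7 and 80.9 FPKM for it, against 54.1, 60.1 and 75.3 FPKM for dmd1. The 2 highest libraries were wild type and the 2 lowest dmd1, but dmd1 library 3 lay above wild-type library 2. Mean levels were 79.1 ± 16.6 and 63.2 ± 11.0 FPKM (SD, n = 3), with a log2 change of -0.31 ± 0.21 (SE, 95% interval -0.81 to 0.18, limma adjusted p = 0.352). The fold of the dmd1 mean to the wild-type mean was 0.798. In bulk anthers, fewer cells of a type and less RNA per cell cannot be told apart.

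**Figure D1:**
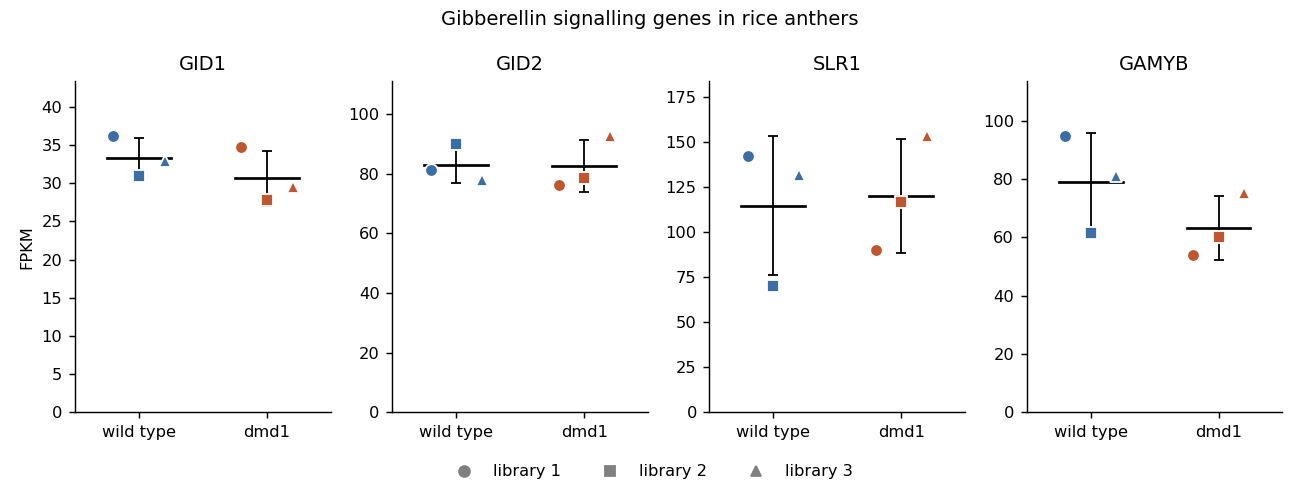
FPKM of GID1, GID2, SLR1 and GAMYB (vertical axes, each from 0) in the 3 wild-type and 3 dmd1 libraries, with marker shapes for the library number, bars for the mean and whiskers for the SD. The genotypes overlap for each gene, and SLR1 and GAMYB were lowest within their genotype in wild-type library 2 and dmd1 library 1.

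For each of the 4 genes the 95% interval lay inside a log2 change of 1 in either direction. This held for GID1 and GID2 in all 17 other settings too. The SLR1 interval reached past 1 in 6 of them, up to 1.33 with equal totals, 1.14 with quantile normalization and 1.17, 1.16, 1.15 and 1.09 without wild-type library 1, wild-type library 3, dmd1 library 1 and dmd1 library 2. The GAMYB interval reached -1.02 with median-of-ratios scaling. For GID2 the interval of the fold ran from 0.793 to 1.24, and for SLR1, where libraries of the same genotype differed most, from 0.624 to 1.83. All tested rows had a median log2 change of 0.12. Set against that median the 4 changes were -0.24 for GID1, -0.13 for GID2, -0.026 for SLR1 and -0.43 for GAMYB. Equal totals moved the median of all rows to 0.29, and relative to it GID1, GID2, SLR1 and GAMYB stood at -0.21, -0.10, 0.0057 and -0.40. GAMYB lay below the median of all rows by 0.28 to 0.64 in all 18 fits, the one reported and 17 with other settings. These fits draw on the same 6 libraries and are not independent. In size the GAMYB change ranked at percentile 48.7 of tested rows.

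In wild type the order of mean levels was SLR1, GID2, GAMYB and GID1, and the order in dmd1 was the same. SLR1 and GID2 did not differ beyond their spread in wild type, since wild-type library 2 held more GID2 than SLR1, and in dmd1 their ranges also overlapped, although SLR1 was the higher in each library. GID2 and GAMYB overlapped in wild type. In dmd1 the lowest GID2 value, 76.3 FPKM, lay just above the highest GAMYB value, 75.3 FPKM. GID1 stood apart below the other three in both genotypes, with a highest value of 36.2 FPKM against a lowest of 54.1 FPKM for GAMYB. By mean level the genes ranked at percentiles 95.3 (SLR1), 93.0 (GID2), 91.7 (GAMYB) and 80.7 (GID1) of tested rows.

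Dividing a library by 1 factor leaves the FPKM ratio of 2 genes within it as it was, and the pseudocount of 1 alters such ratios little at these levels. All 6 pairs were therefore compared on FPKM + 1 with a two-sided exact permutation test over the libraries, whose smallest possible p is 0.1. GAMYB to SLR1, the activator at the end of the route against the repressor upstream of it, was the pair whose genotypes did not overlap. The FPKM ratio was 0.666, 0.875 and 0.613 in wild type and 0.601, 0.513 and 0.491 in dmd1. Each dmd1 library was below each wild-type library, though dmd1 library 1 was only just below wild-type library 3. On the log2 scale the ratio averaged -0.49 ± 0.27 in wild type and -0.90 ± 0.15 in dmd1 (SD, n = 3), a difference of -0.41 (exact permutation p = 0.1, or 0.6 adjusted over the 6 pairs). The difference did not pass. It was -0.53 between wild-type library 2 and dmd1 library 1 and -0.34 between the means of the other libraries. With any library left out it ran from -0.51 to -0.26. Because the genotypes did not overlap, these values could only be negative, so they show the size of the difference and do not test its sign. For single rows, as background, 38.4% of all tested rows had genotypes without overlap.

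The other pairs overlapped. Receptor to repressor, GID1 to SLR1, differed by -0.22 on the log2 scale (exact permutation p = 0.5). GID2 to SLR1 differed by -0.11 (exact permutation p = 1.0), with wild-type library 2 alone above 0 at 0.35. GAMYB to GID2 differed by -0.30 and GAMYB to GID1 by -0.19 (exact permutation p = 0.4 and 0.6), and GID2 to GID1 by 0.11 (exact permutation p = 0.7). Adjusted over the 6 pairs these p-values were 0.84 or 1.0. With 3 libraries per genotype such p-values do not show that the ratios were alike.

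**Figure D2:**
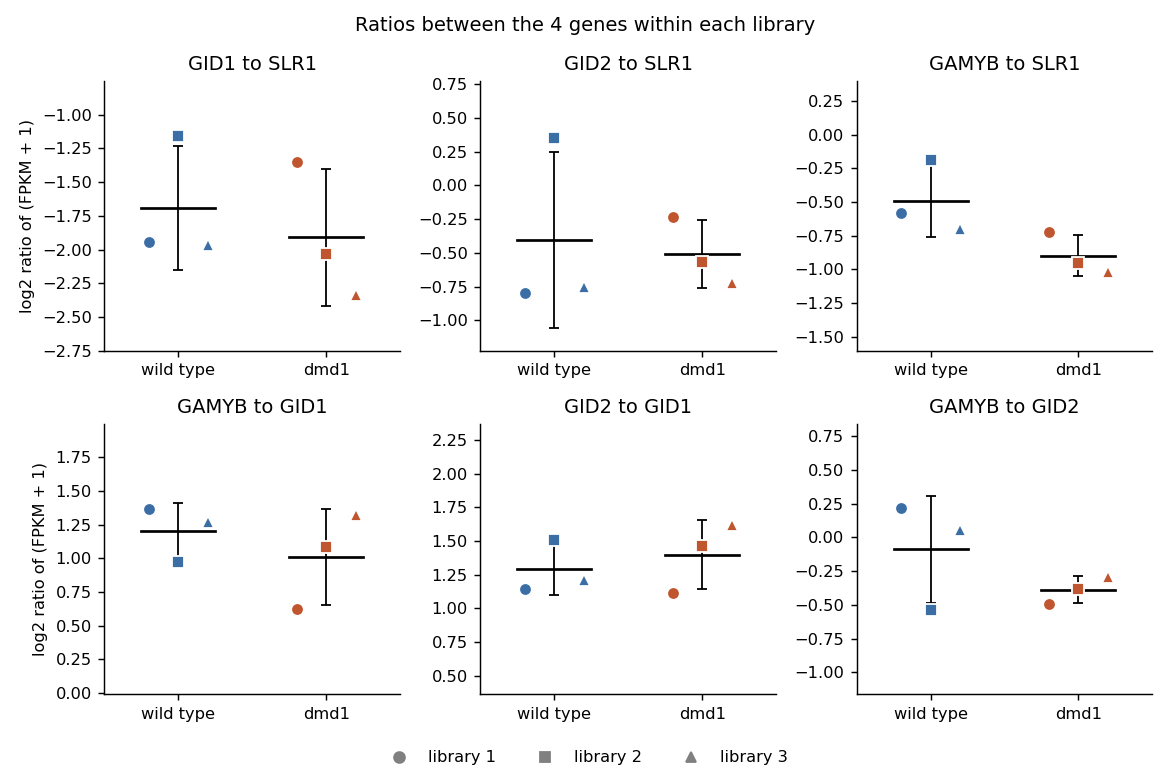
Within-library log2 ratios of FPKM + 1 (vertical axes, each spanning the same width) for the 6 pairs of the 4 genes, with bars for the mean and whiskers for the SD over 3 libraries. The GAMYB to SLR1 ratio runs from -0.70 to -0.19 in wild type and from -1.02 to -0.72 in dmd1, and the other pairs overlap.

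The library-to-library course of SLR1 was shared with another gene. Likeness was measured as the root mean square difference between mean-centred log2(FPKM + 1) values over the 6 libraries, among the listed genes other than the 4 themselves. Nearest to SLR1 was SLRL1 (OS01G0646300), a close relative of SLR1 that lacks the DELLA motif, at a difference of 0.074, with 0.04% of tested rows closer and a median of 0.53 over all tested rows. SLRL1 levels were 26.0, 12.6 and 26.8 FPKM in wild type, against 15.0, 22.1 and 28.0 FPKM in dmd1. Like SLR1 it was lowest in wild-type library 2 and dmd1 library 1. Its ratio to SLR1, taken after the values were seen and without a test, kept between 0.166 and 0.203 in the 6 libraries. RSEM is among the tools that the submitters name, and how it divided reads shared by such related genes was not examined. SLRL1 did not differ between genotypes beyond its spread (log2 change 0.021 ± 0.34, SE, limma adjusted p = 0.975).

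Wild-type library 2 and dmd1 library 1 also lay on 1 side of the second principal component of all tested rows, at -52.5 and -52.8, with dmd1 library 2 at -6.4 and the other libraries between 34.7 and 39.7. No label names a batch for this. From wild-type library 2 to dmd1 library 1, the log2 differences were 0.16 for GID1, -0.24 for GID2, 0.35 for SLR1 and -0.19 for GAMYB. Between the means of the other libraries they were -0.26, 0.10, -0.032 and -0.38. The first of these comparisons sets 1 library against 1 and has no spread, and dmd1 library 2, placed with the others, lay between. With both libraries left out, GAMYB had a log2 change of -0.38 and was not called (limma adjusted p = 0.212, with a range of 0.015 to 0.818 over the 17 other settings). The lowest of these came with library weights, which gave dmd1 library 2 a weight of 9.13 against at most 1.49 elsewhere.

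**Figure D3:**
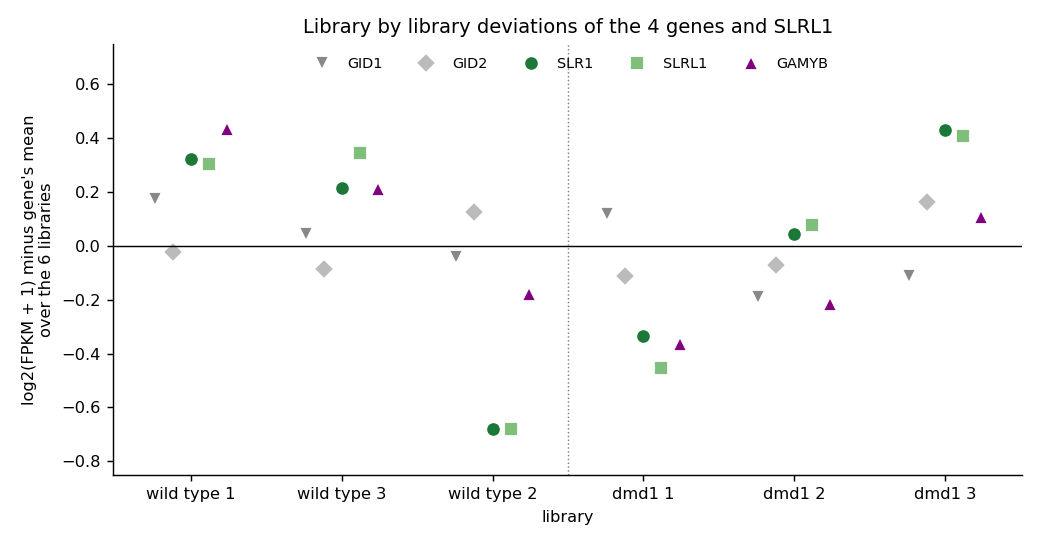
Deviation of log2(FPKM + 1) from each gene's mean over the 6 libraries (vertical axis) for GID1, GID2, SLR1, SLRL1 and GAMYB in each library (horizontal axis, genotypes divided by the dotted line). SLR1 and SLRL1 move together, both at -0.68 in wild-type library 2, while GID1 and GID2 stay between -0.19 and 0.18.

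Other neighbours in pattern among the listed genes outside the 4 were less close. The share of tested rows closer than them ran from 1.49% (KS1 to GID1) to 14.54% (OS07G0562700 to SLR1). For GAMYB they were SPY, a glycosyltransferase that restrains gibberellin responses, at 0.21, and WDA1, a gene of wax synthesis in the anther, at 0.26. SPY was also the nearest of the listed genes to GID2 (0.11), followed by the meiotic axis gene PAIR2 (0.15). GID1 was nearest to KS1, the ent-kaurene synthase of gibberellin synthesis (0.12), and then to SPY (0.17). Among the 4 genes themselves, SLR1 and GAMYB differed by 0.27, GAMYB and GID1 by 0.26 and GID1 and GID2 by 0.19. After SLRL1, the listed gene outside the 4 nearest to SLR1 was a light-harvesting gene, OS07G0562700 (0.36). Among all tested rows that begin with OS, the nearest were OS11G0572800 to GID1 (0.039), OS02G0684900 to GID2 (0.024), OS11G0308800 to SLR1 (0.042) and OS06G0653000 to GAMYB (0.031), for which the files hold no names.

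Among other genes of gibberellin signalling GSR1 rose and CIGR1 fell. Of 11 listed genes 10 were tested, of which 1 rose, 1 fell and 8 gave no call, beside 6.71% of all tested rows called. Their median log2 change was -0.051 against 0.12 for all rows. Genotypes did not overlap for 6 of the 10, beside 38.4% of all tested rows. GSR1 (OS06G0266800), a small cysteine-rich protein of the GAST family that gibberellin induces, had 103, 126 and 106 FPKM in wild type, against 337, 305 and 265 FPKM in dmd1. Each dmd1 library held more than 2 times the GSR1 level of each wild-type library. GSR1 rose by 1.43 ± 0.16 log2 units (SE, limma adjusted p = 0.00563). CIGR1 (OS07G0545800), a GRAS-family gene that gibberellin and chitin fragments induce in cultured rice cells, moved the other way. Its values were 44.4, 46.9 and 40.3 FPKM in wild type and 22.7, 15.9 and 16.6 FPKM in dmd1, without overlap, and its log2 change came to -1.22 ± 0.16 (SE, limma adjusted p = 0.0094). Both genes are thus inducible by gibberellin in background knowledge, and here 1 rose and 1 fell. Both calls held in all 17 other settings, with adjusted p up to 0.0382 for GSR1 and 0.0477 for CIGR1. CIGR2, a relative of CIGR1, averaged 19.5 FPKM in both genotypes (log2 change -0.047 ± 0.33, SE, limma adjusted p = 0.94).

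GDD1 and NGR5 passed the adjusted p without the fold minimum, as did 13.0% of all rows. GDD1 (OS09G0114500), a kinesin-like protein that binds the promoter of the gibberellin synthesis gene KO2, averaged 99.5 ± 25.7 FPKM in wild type and 51.3 ± 5.61 FPKM in dmd1 (SD, n = 3). Its log2 change was -0.92 ± 0.20 (SE, limma adjusted p = 0.0354, with a range of 0.00163 to 0.124 over the other settings), and under median-of-ratios scaling it reached the fold minimum (-1.05). NGR5 (OS05G0389000), an AP2-type factor that binds GID1 and competes there with SLR1, averaged 16.9 ± 1.33 and 26.7 ± 2.83 FPKM, which is 0.63 ± 0.13 higher in log2 units (SE, limma adjusted p = 0.0282, with a range of 0.00876 to 0.103). The adjusted p of NGR5 was over 0.05 without any 1 library.

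The partners of the 4 proteins gave no call. OSK1, the SKP1-type subunit that ties GID2 into its ubiquitin ligase, averaged 688 and 640 FPKM, and its log2 change was -0.054 ± 0.27 (SE). EL1, a casein kinase that phosphorylates SLR1, and SPY had log2 changes of -0.19 each. The genotypes overlapped for EL1 but not for SPY, at 40.75 to 42.19 FPKM in wild type and 33.72 to 40.31 FPKM in dmd1. DLT, a GRAS protein of brassinosteroid and gibberellin responses, differed by 0.47 ± 0.13 log2 units (SE, limma adjusted p = 0.06), also without overlap. The alpha-amylase gene RAMY1A, a target of GAMYB in the cereal grain, was at most 0.303 FPKM in any library and was not tested.

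**Figure D4:**
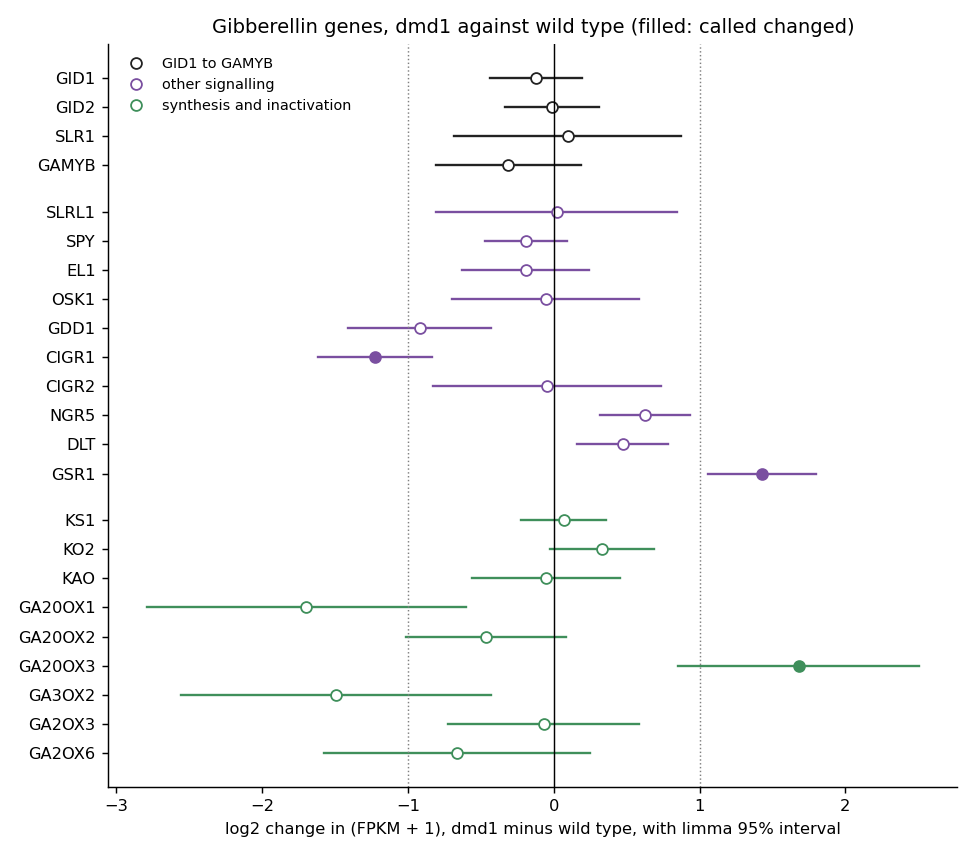
Log2 change of FPKM + 1, dmd1 minus wild type (horizontal axis), with its 95% limma interval, for the 4 genes, 10 other signalling genes and 9 genes of gibberellin synthesis and inactivation. Filled points are called changed: CIGR1 at -1.22, GSR1 at 1.43 and GA20OX3 at 1.68, while the intervals of GID1, GID2, SLR1 and GAMYB all cross 0 and, in the fit shown, stay inside -1 and 1.

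Genes that make and inactivate the hormone upstream of GID1 gave 1 rise and no fall among 9 tested of 15, a share near the 6.71% of all tested rows called. The median log2 change of the 9 was -0.069. Genotypes did not overlap for 3 of the 9, beside 38.4% of all tested rows. GA20OX3 (OS07G0169700), a gibberellin 20-oxidase of the later synthesis steps, had 47.2, 19.2 and 20.4 FPKM in wild type, against 76.4, 88.9 and 97.1 FPKM in dmd1, with no overlap. Its log2 change was 1.68 ± 0.34 (SE, limma adjusted p = 0.0286). The call was lost in 7 of 17 other settings, which were the replicate block (limma adjusted p = 0.0629) and the fits that left out wild-type library 2 (0.0578) or 3 (0.0913), dmd1 library 1 (0.0636), 2 (0.0956) or 3 (0.0743), or both wild-type library 2 and dmd1 library 1 (0.0852). In these the log2 change ran from 1.46 to 1.77. Its relative GA20OX1 (OS03G0856700) had 131, 71.6 and 96.9 FPKM in wild type, against 52.5, 31.2 and 15.0 FPKM in dmd1, with no overlap, but missed the call (log2 change -1.70 ± 0.45, SE, limma adjusted p = 0.0576). It was called with equal totals (0.0481), quantile normalization (0.0451), median-of-ratios scaling (0.0367), library weights (0.00226), without dmd1 library 1 (0.0382) and without wild-type library 2 with dmd1 library 1 (0.036), over a range of 0.00226 to 0.164.

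GA3OX2 (OS01G0177400), which completes the bioactive hormone, averaged 11.3 ± 6.05 and 3.06 ± 1.19 FPKM (SD, n = 3) and missed the call (log2 change -1.49 ± 0.44, SE, limma adjusted p = 0.0735). Between wild-type library 2 and dmd1 library 1 its log2 difference was -0.092, and between the other libraries it was -2.19. It was called without wild-type library 2 (limma adjusted p = 0.0191), without that library and dmd1 library 1 (0.013), with library weights (0.0011) and with the replicate block (0.0454), over a range of 0.0011 to 0.197. KO2, an ent-kaurene oxidase of the early steps, averaged 13.5 and 17.2 FPKM without a call (log2 change 0.33 ± 0.15, SE, limma adjusted p = 0.185). The 6 untested genes, CPS1, GA3OX1, GA2OX1, GA2OX4, GA2OX9 and EUI1, stayed at or below 0.769 FPKM in every library.

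**Figure D5:**
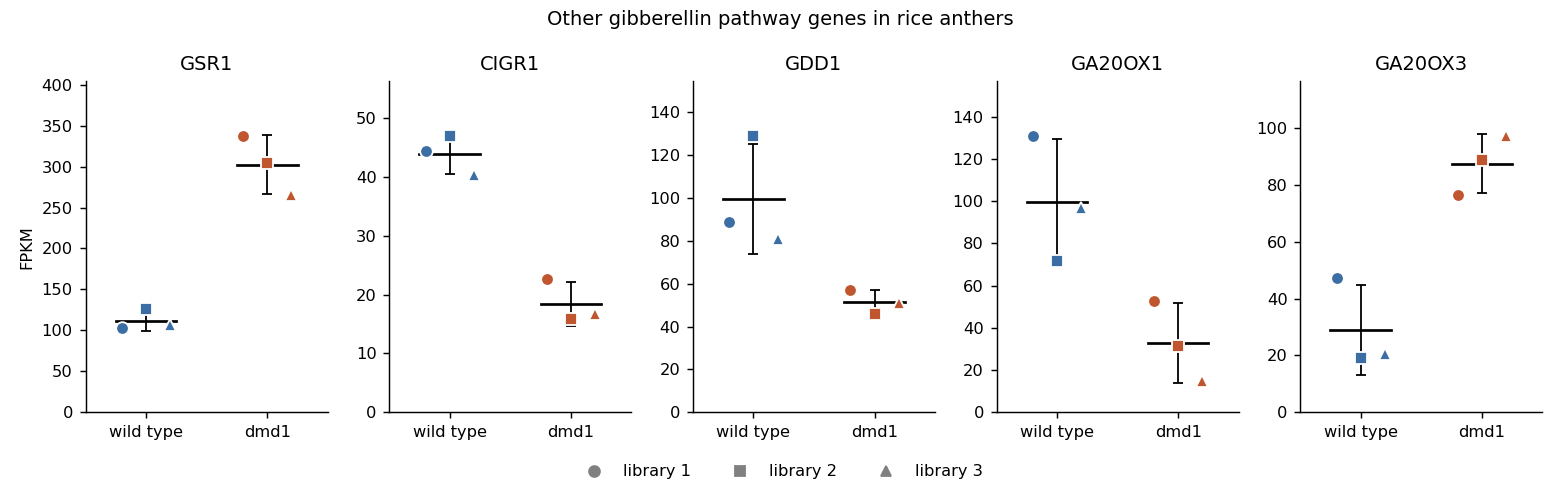
FPKM (vertical axes, each from 0) of GSR1, CIGR1, GDD1, GA20OX1 and GA20OX3 in the 3 wild-type and 3 dmd1 libraries, with bars for the mean and whiskers for the SD. The 5 genes were named for small p in this comparison. None of them overlaps between genotypes, beside 38.4% of all tested rows without overlap. GSR1 and GA20OX3 are higher and CIGR1, GDD1 and GA20OX1 lower in dmd1, of which GDD1 did not reach the fold minimum and GA20OX1 was not called.

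Tapetal genes that act beside or below GAMYB were read next. Of 10 listed tapetal genes 9 were tested, 3 fell, 1 rose and 5 were not called, with a median log2 change of -0.77, beside 6.71% of all tested rows called. CYP703A3 (OS08G0131100), a fatty acid hydroxylase for the pollen wall whose promoter GAMYB binds, had 5107, 4701 and 5031 FPKM in wild type, against 1415, 1351 and 623 FPKM in dmd1. All dmd1 libraries lay far below all wild-type libraries. Its log2 change was -2.22 ± 0.34 (SE, limma adjusted p = 0.0137), against -0.31 for GAMYB, and the fall missed the threshold when wild-type library 1 (0.0613) or 3 (0.0515) or dmd1 library 2 (0.0507) was left out. Per library the ratio of CYP703A3 to GAMYB ran from 53.9 to 76.2 in wild type and from 8.27 to 26.2 in dmd1. This ratio was chosen after the values were seen and was not tested. UDT1 and TDR, bHLH factors, of which UDT1 acts beside GAMYB and TDR below both, had log2 changes of 0.075 ± 0.13 and -0.073 ± 0.19 (SE) and were not called. The other calls were falls of EAT1 and CYP704B2, with log2 changes of -3.30 and -2.91, and a rise of TIP2, with 1.79. EAT1 was lost without the same 3 libraries as CYP703A3 (limma adjusted p = 0.0724, 0.0568 and 0.0651).

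Markers were read beside these results. Tapetal genes marked the tissue as anther, with CYP704B2 at 6855 FPKM or more in each wild-type library, whereas the row listed as RTS was at 0 in 5 libraries and at 0.176 FPKM in wild-type library 2. Whether that identifier is the tapetum gene RTS was not checked. The summed FPKM of the 10 tapetal genes ran from 25100 to 27730 in wild type and from 2507 to 6370 in dmd1. In wild type most of this sum was held by CYP704B2, CYP703A3 and the lipid transfer protein gene C6, which ran from 9472 to 14190 FPKM in wild type and from 2.39 to 2039 FPKM in dmd1 (log2 change -6.39, not called, limma adjusted p = 0.103). The summed FPKM of 6 green tissue genes ran from 195 to 373 in wild type and from 132 to 199 in dmd1. Of the 6, 1 fell, a light-harvesting gene (OS01G0600900, limma adjusted p = 0.0223), beside 6.71% of all tested rows called. The log2 change was positive for 2, RCA (0.53) and RBCS4 (0.57), neither of them called, and negative for the others. Of 5 tested meiocyte genes of 6 none was called (limma), against the same share of all rows. The summed FPKM of the 6 ran from 44.3 to 60.4 in wild type and from 50.9 to 58.1 in dmd1. PAIR2 held most of it, at 32.64 to 44.24 FPKM in wild type and 33.95 to 40.99 FPKM in dmd1. The meiotic cohesin gene REC8 was the one among the 5 tested at an unadjusted p under 0.05 (limma), against 31.3% of all tested rows. It also passed the adjusted p without the fold minimum, as did 13.0% of all rows. Its libraries held 3.56 to 3.78 FPKM in wild type and 6.62 to 8.10 FPKM in dmd1 (log2 change 0.87, limma adjusted p = 0.0147). Of the 5 tested, 4 had a positive log2 change. MEL1 had a negative one (-0.36, limma adjusted p = 0.280), at 3.884 to 6.201 FPKM in wild type and 2.891 to 3.88 FPKM in dmd1. The part of cell composition in the levels of GAMYB, GSR1, CIGR1 and the synthesis genes was not tested.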

How the data were processed

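The authors deposited 1 table of FPKM values with 1 column per library. Tools named in the submitters' processing notes are fastp, HISAT and RSEM, with the build IRGSP-1.0. The annotation, strand setting and any filter are not stated there. Per the labels' protocols, RNA had an integrity number of at least 6.5. FPKM values are not counts, so depth is unknown and counting error was not computed. FPKM totals per library ran from 808227 to 1287424, and no 2 libraries were identical.

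Rows with at least 1 FPKM in at least 3 of 6 libraries (25474 of 94013) were transformed to log2(FPKM + 1), which understates changes of low rows, and fitted with limma 3.58.1 in R 4.3.3 (trend and robust options), with Benjamini-Hochberg adjustment over all tested rows. Errors of log2 changes are limma standard errors. Within-library ratios were tested by exact permutation with scipy 1.17.1.

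The members and lists were chosen with earlier results of these data known. The rule for named genes takes the 4 members, up to 4 genes with the smallest p and all called genes from each of the lists on signalling, hormone metabolism and tapetum, and the nearest genes in pattern. Other genes were named after their values were seen. None of the 52 listed identifiers was in the reference gene table, so no coordinates or sequences are given. Same-numbered libraries did not all deviate together, and numbers were not taken as pairs. Alternatives were another pseudocount (0.1), 2 other filters, 3 scalings, no trend and robust options, library weights, a replicate block, OS rows alone and leaving out libraries.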

Additional observations from a re-analysis of the deposited data

How the results depend on the processing

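GID1, GID2, SLR1 and GAMYB were not called in any of the 17 other settings (limma), and GAMYB kept a negative log2 change in each. Signs turned as follows. With equal totals GID1 became 0.076 and GID2 0.19, and with quantile normalization GID2 became 0.070. SLR1 became -0.034 with median-of-ratios scaling and -0.15 with library weights. When wild-type library 2 and dmd1 library 1 were both omitted, GID2 was 0.0996 and SLR1 -0.032. With 1 library left out, GID2 ran from -0.097 to 0.047 and SLR1 from -0.22 to 0.28. In the same way the log2 ratio differences ran from -0.50 to 0.050 for GID1 to SLR1, -0.31 to 0.27 for GID2 to SLR1, -0.35 to 0.0021 for GAMYB to GID1 and -0.00023 to 0.25 for GID2 to GID1. With library weights GID1 and GAMYB passed the adjusted p without the fold minimum (limma adjusted p = 0.0437 and 0.015).

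All called rows, 1709 as reported, numbered 2672 with library weights and 671 to 1605 with 1 library left out (680 without wild-type library 1, 934 when wild-type library 3 was left out, 671 without dmd1 library 2). They numbered 1635 without wild-type library 2 and dmd1 library 1. Calls among hormone metabolism genes were 2 with equal totals, quantile normalization, median-of-ratios scaling and with both wild-type library 2 and dmd1 library 1 omitted, 3 with library weights, and 0 to 1 with 1 library left out. Calls among tapetal genes ran from 2 to 5 with 1 library left out, and there were 6 with library weights. Signalling calls were 2 in each setting except median-of-ratios scaling, where GDD1 made them 3. The share of rises among all calls, 47.2%, was 62.9% with equal totals and 35.4% under median-of-ratios scaling. Fits without a library have fewer residual degrees of freedom, and their counts differed by which library was left out. The causes of these shifts were not tested.

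With the replicate block 1395 rows were called, GAMYB had an adjusted p of 0.378 (limma), GA20OX3 was lost and GA3OX2 gained. In the ratio of GAMYB to SLR1 the exact sign-flip p with the block was 0.25, the smallest 3 pairs allow. Residuals of same-numbered libraries correlated at -0.35, -0.012 and 0.35 over tested rows.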

Other observations

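Levels of the gibberellin 20-oxidase genes were set side by side after the values were seen and without a test. Of these genes GA20OX3 was called, a call lost in 7 of 17 other settings, and GA20OX1 and GA20OX2 were not. The level of GA20OX3 relative to GA20OX1 within a library was 0.361, 0.268 and 0.211 in wild-type libraries 1, 2 and 3 and 1.45, 2.85 and 6.49 in dmd1 libraries 1, 2 and 3. GA20OX1 had the higher FPKM in every wild-type library and GA20OX3 in every dmd1 library. The summed FPKM of GA20OX1, GA20OX2 and GA20OX3 overlapped, at 194, 104 and 127 in wild type and at 139, 129 and 119 in dmd1, with means of 141 ± 46.7 and 129 ± 10.1 (SD, n = 3).

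GSR1 and CIGR1, both known to respond to gibberellin, were also set side by side within libraries after the values were seen. The FPKM ratio of GSR1 to CIGR1 was 2.31, 2.69 and 2.64 in wild type and 14.9, 19.2 and 15.9 in dmd1.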
